A study of Drosophila melanogaster with 2 samples.

Results

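The 6 genes Sxl, tra, tra2, dsx, fru and ix form the core of the somatic sex determination pathway of Drosophila melanogaster and were examined for binding of the AT-hook protein D1. They were taken by symbol from the annotation of the dm6 assembly, out of 13945 protein-coding genes and 18164 annotated genes on the chromosomes that hold peaks. Every deposited peak with its summit in the gene body, or within 5 kb of either end, was assigned to the gene. D1-eGFP chromatin came from whole pupae aged 24 hours of a transgenic line that stably carries D1 with a C-terminal GFP tag, precipitated through the tag in 2 biological replicates that form the only group. The submitters recorded no sex for the pupae, so male and female chromatin cannot be told apart, nor can the tissues within a pupa. The deposited data were 4 peak lists: 30000 peaks from each replicate, 30000 from both replicates pooled, and 3388 peaks kept by the irreproducible discovery rate procedure (the IDR set). Each peak has a signal given by the authors, on a scale that the sources used here do not give, and a rank by signal within its list. The 3388 IDR peaks were the 3388 highest pooled peaks, with a lowest signal of 142, and each longer list ends at the same length, so a summit count says how many of the highest peaks of a list lie at a gene. Read depth is unknown.

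D1 is a chromosomal protein with many AT hooks, best known for binding AT-rich satellite DNA in heterochromatin. Sex in the fly follows a chain of regulated splicing: Sxl, an RNA-binding protein made in females, directs the splicing of tra, and the Tra protein acts with Tra2 on the transcripts of dsx and fru. Both targets encode transcription factors with sex-specific isoforms, and Ix is a cofactor of the female Dsx protein. The pathway acts mainly at the level of RNA, so the peaks below say nothing of sex-specific transcripts. They describe where D1 peaks were called on the genes, and many of the pooled peaks were weak calls.

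D1 summits in the IDR set lay at dsx and fru and at none of the other members. The 5 IDR regions are shown first, as 200 bp around the summit on the plus strand of dm6, because they are the member peaks that the procedure kept. Capitals mark unbroken runs of 8 or more A or T. All members are transcribed from the minus strand, so the printed strand is opposite to the transcript. None of these regions overlapped an annotated exon or transposable element.
The higher of the dsx peaks lay upstream of the gene, at chr3R:7969714-7969913, with 4 such runs and an AT content of 74.0%.
dsx upstream: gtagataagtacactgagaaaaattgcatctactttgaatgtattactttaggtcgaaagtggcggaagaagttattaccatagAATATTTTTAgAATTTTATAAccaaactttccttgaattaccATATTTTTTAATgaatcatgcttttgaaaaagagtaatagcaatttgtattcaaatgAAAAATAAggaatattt
The other dsx peak lay in an intron, at chr3R:7953060-7953259, with 5 runs, the longest of 16 bases, and an AT content of 72.5%.
dsx intron: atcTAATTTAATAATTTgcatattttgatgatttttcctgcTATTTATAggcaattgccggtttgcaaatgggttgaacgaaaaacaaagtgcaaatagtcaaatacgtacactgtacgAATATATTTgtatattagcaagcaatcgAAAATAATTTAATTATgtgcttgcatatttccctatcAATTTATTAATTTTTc
The highest fru peak lay at chr3R:18456298-18456497 and held 1 run, of 9 bases, which begins near the summit, with an AT content of 61.5%.
fru intron, highest: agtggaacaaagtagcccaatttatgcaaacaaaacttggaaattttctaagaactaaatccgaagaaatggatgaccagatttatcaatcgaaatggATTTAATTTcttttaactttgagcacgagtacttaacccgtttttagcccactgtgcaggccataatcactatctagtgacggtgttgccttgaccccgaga
The next fru peak lay at chr3R:18469510-18469709, with 5 runs, the longest of 17 bases, and an AT content of 70.0%.
fru intron, next: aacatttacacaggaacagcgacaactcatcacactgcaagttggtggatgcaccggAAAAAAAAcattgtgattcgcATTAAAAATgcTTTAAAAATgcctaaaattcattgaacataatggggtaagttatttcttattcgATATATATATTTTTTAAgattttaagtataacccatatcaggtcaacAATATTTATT
The lowest fru peak lay at chr3R:18436606-18436805, with 2 runs of up to 9 bases and an AT content of 64.5%.
fru intron, lowest: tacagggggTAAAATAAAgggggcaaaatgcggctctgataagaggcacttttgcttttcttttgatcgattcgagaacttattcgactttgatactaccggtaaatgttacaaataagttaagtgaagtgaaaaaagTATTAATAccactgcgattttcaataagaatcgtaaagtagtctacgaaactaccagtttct

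A pair of regions outside the IDR set are shown for contrast, with capitals as above. The highest pooled peak of Sxl lay at chrX:7096452-7096651, with an AT content of 57.0%, lower than at any of the 5 IDR summits above. It is not typical of Sxl, since 57.0% was the lowest of its 19 pooled summits, whose mean was 67.0%.
Sxl intron: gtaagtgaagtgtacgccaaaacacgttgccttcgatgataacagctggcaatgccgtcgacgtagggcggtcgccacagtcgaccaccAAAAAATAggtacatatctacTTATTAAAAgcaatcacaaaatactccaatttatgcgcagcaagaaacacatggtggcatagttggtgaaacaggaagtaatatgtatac
The 156 bp just upstream of the tra start, at chr3L:16591051-16591206, hold a run of 15 bases and have an AT content of 60.9%, yet no list placed a summit within 19 kb of the tra body.
tra upstream: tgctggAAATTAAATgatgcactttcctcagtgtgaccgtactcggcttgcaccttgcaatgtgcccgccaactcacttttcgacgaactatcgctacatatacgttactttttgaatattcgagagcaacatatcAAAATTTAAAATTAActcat

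Across the 6 genes the pooled list placed 106 summits, the replicate 1 list 107 and the replicate 2 list 96, and the IDR set placed 5. The pooled summits lay at 3 genes: 48 at fru, 39 at dsx and 19 at Sxl. No pooled summit lay at tra, tra2 or ix. A pooled summit in the same kind of window was found for 57.2% of protein-coding genes and an IDR summit for 27.3%, so 3 of 6 and 2 of 6 members are near the background shares. The gene lengths differ by far more than these counts: fru spans 131.3 kb, dsx 43.1 kb and Sxl 23.5 kb, while tra spans 0.992 kb, tra2 2.33 kb and ix 0.727 kb. Among genes of 20 kb or more, 59.3% held an IDR summit, against dsx and fru of the 3 long members. Among genes under 3 kb, 20.5% held an IDR summit and 50.6% a pooled summit, against 0 of 3 short members for each.

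Per length, dsx held the most pooled summits, with 7.35 per 10 kb of body and flanks, then Sxl with 5.67 and fru with 3.40. In the replicate lists the same quantity was 6.78 ± 1.33 for dsx, 5.22 ± 1.06 for Sxl and 3.29 ± 0.851 for fru (mean ± SD, n = 2). The SD ranges of dsx and Sxl overlap, whereas that of fru lies below that of dsx and only just below that of Sxl. With n = 2 this is a description only. Among the 1013 genes of 20 kb or more the median was 2.36 per 10 kb, with quartiles of 0.726 and 4.48. A higher value than that of dsx was found in 5.03% of those genes, than that of Sxl in 16.7%, and than that of fru in 36.9%. Together the 6 windows cover 262 kb and held 405 pooled summits per Mb, against 224 per Mb over the rest of the chromosomes that hold peaks, a ratio of 1.81. The ratio was 1.82 in replicate 1 and 1.63 in replicate 2. Nearby summits are not independent, and with summits within 500 bp counted once the pooled counts were 41 at fru, 35 at dsx and 13 at Sxl.

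**Figure D1:**
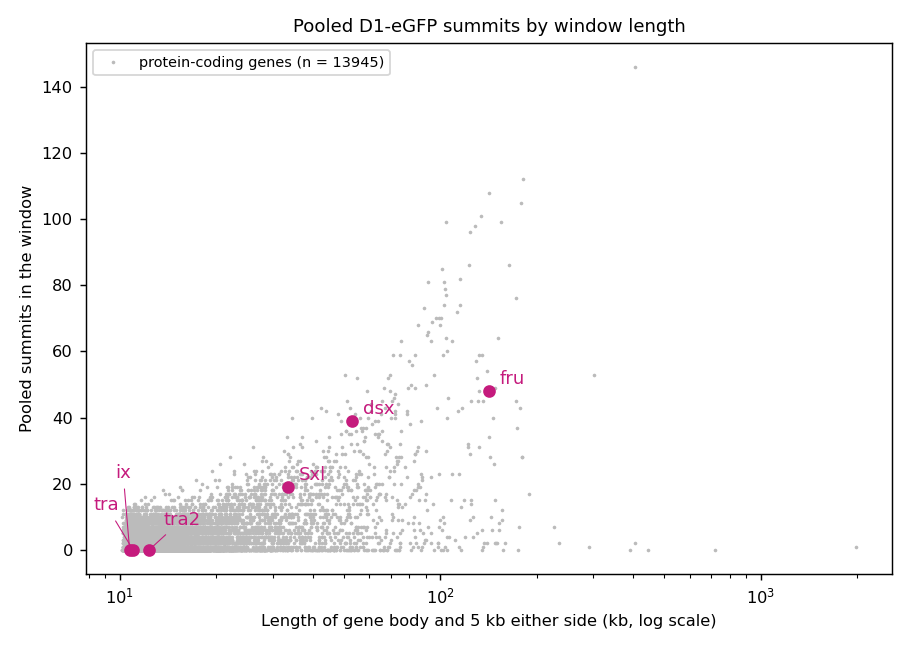
Pooled D1-eGFP summits (vertical axis) against the length of gene body and 5 kb either side (horizontal axis, log scale) for 13945 protein-coding genes (grey) and the 6 members (coloured). dsx and Sxl, with 39 and 19 summits, lie high among genes of their length, fru lies lower with 48, and tra, tra2 and ix lie at 0.

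The summits at these genes seldom reached the signals of the IDR set. Of the 106 pooled summits, 5 (4.72%) were in the IDR set, against 11.3% of the other pooled peaks. The median signal was 63.3 at the members and 64.1 elsewhere, the upper quartile was 85.3 against 93.9, and the highest signal was 219 against 1204. Many pooled summits were also weak by the authors' −log10 q-value, which is higher for stronger calls. It was 1.23 at a fru summit of signal 85.3, 0.731 at a fru summit of 63.2 and 0.409 at an Sxl summit of 43.3. The pooled counts and densities therefore include many weak calls. In contrast to the pooled density, the density of IDR summits was 19.1 per Mb in the member windows, against 25.4 per Mb elsewhere, a ratio of 0.753. The 5 summits give an exact 95% Poisson interval of 6.20 to 44.5 per Mb, which covers counting error only and includes the value elsewhere. The ratio was 1.51 over the 3388 highest peaks of replicate 1, with 10 summits at 4 members, and 0.602 over those of replicate 2, with 4 summits at 2 members. Most summits lay in introns: 76 of 106 (71.7%), against 47.9% of the other pooled summits, while introns make up 67.9% of the sequence of the windows of Sxl, dsx and fru.

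**Figure D2:**
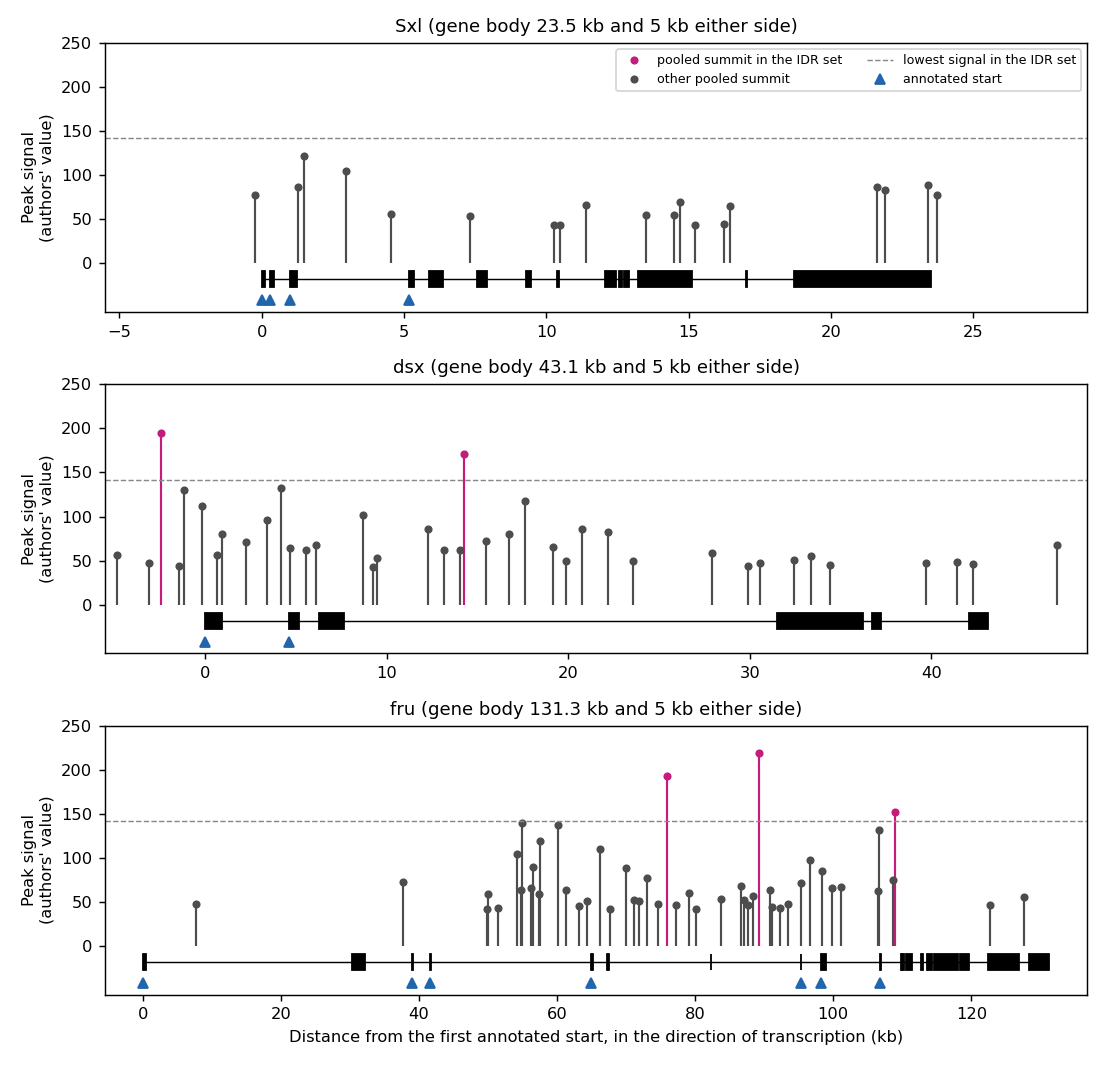
Pooled D1-eGFP summits at Sxl, dsx and fru by distance from the first annotated start in the direction of transcription (kb), with the authors' peak signal as height. Coloured stems are the 5 IDR summits, black boxes the exons, triangles the annotated starts, and the dashed line the lowest signal of the IDR set, which no Sxl summit reached.

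Sxl, the master switch that is set in the early female embryo, had pooled summits spread along its length but none in the IDR set. Its 19 pooled summits ran from 227 bp upstream of the first start to just past the end of the gene, with signals up to 121. That highest summit, shown above, ranked 4557 in the pooled list and lay 1.50 kb into the gene, in the intron of 3.93 kb that precedes the early start. Its signal was 72.6 in replicate 1 and 35.8 in replicate 2, at ranks 3135 and 17138 of 30000, so only replicate 1 placed it among its 3388 highest peaks. The next summit, at 2.95 kb in the same intron, had a pooled signal of 104, with 47.6 in replicate 1 and 49.2 in replicate 2. Both promoters known from textbooks had summits of modest signal at some distance. The first start, from which Sxl is transcribed in both sexes once its state is set, had a pooled summit 227 bp upstream, of signal 77.8. Replicate 1 had a summit of signal 41.9 there, whereas the nearest of replicate 2 lay 1271 bp inside the gene. The start at 5.17 kb, the annotated start nearest to the early embryonic promoter, had its nearest pooled summit 628 bp upstream, of signal 56.1. That summit lay nearer to the start of lncRNA:CR46494, at 260 bp. Its signal was 25.5 in replicate 1 (rank 21329) and 28.1 in replicate 2 (rank 25380). Another 6 pooled summits lay in 3' UTR sequence, at 13.5 to 23.4 kb. Sxl had the most AT-rich window of the 6, at 61.8%.

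Replicate 1 alone gave Sxl a second high peak. Its summit lay 3626 bp upstream of the first start, in an intron of CG4615, with a signal of 113 and rank 1231. The nearest pooled summit was 3399 bp away and the nearest of replicate 2 was 4897 bp away, although the pooled list was called on the reads of both replicates. Of the 3388 highest peaks of replicate 1, 3.51% had no pooled summit within 200 bp, against 2 of 10 at the members, this one and 1 at tra2. For replicate 2 the share was 2.30%, against 0 of 4 at the members.

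The short members tra, tra2 and ix were bare in the pooled list. tra, whose female splice form encodes the splicing activator, had 0 summits in all 4 lists. Its nearest pooled summit lay 20.1 kb from the gene body with a signal of 41.6, close to the lowest of the list (41.1), and its nearest IDR summit lay 43.9 kb away. tra2, which encodes the splicing partner of Tra on arm 2R, had a summit in replicate 1 alone, of signal 85.0 and rank 2287. It lay 1117 bp upstream of tra2 and 157 bp upstream of the start of the neighbour CG12868, and the nearest pooled summit was 20.3 kb from the gene. ix, also on 2R, had summits in replicate 2 alone. That of signal 61.6 (rank 5994) lay 94 bp upstream of the start of CG12384, and that of signal 25.8 (rank 28574) lay 496 bp upstream of the ix start but nearer to that of the neighbour san, 47 bp away. An IDR summit of signal 283 lay 7.25 kb from ix, outside its window. A count of 0 in the IDR set allows up to 3.69 summits for each of these genes (exact 95% Poisson bound, counting error only). Coding sequence made up 41.5% of the tra window and 42.9% of the tra2 window but 12.1% of the ix window, against 7.0% for Sxl, 7.58% for dsx and 3.57% for fru, and the window AT contents were 50.9% for tra, 56.0% for tra2 and 55.2% for ix. Their part in the counts was not tested.

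dsx, which encodes the DM-domain factor that directs sexual differentiation of most of the body, held 39 pooled summits that were densest toward its 5' end. The 25 kb from the first start held 23 of them, 9.20 per 10 kb, against 9 in the remaining 18.1 kb, 4.98 per 10 kb, and the flanks held the rest. The AT content was 59.4% in the 5' stretch and 59.6% in the rest. The split was chosen after the positions were seen. In replicate 1 the counts were 21 and 5, and in replicate 2 they were 23 and 11.

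The upstream IDR peak of dsx, shown above, lay 2405 bp before the first start with a pooled signal of 194 (rank 1816). It had a signal of 84.6 in replicate 1 and 119 in replicate 2, and was among the 3388 highest of each. The intronic IDR peak lay 14.2 kb into the gene with a pooled signal of 171 (rank 2326), and had 77.6 in replicate 1 and 100 in replicate 2. Its intron of 23.8 kb held 18 of the pooled summits. Both annotated starts had a pooled summit within 500 bp but no IDR summit. The first had a signal of 111 at 137 bp upstream, with 47.3 in replicate 1 and 67.5 in replicate 2. The second, at 4.62 kb, had one of 64.8 at 56 bp, with 53.2 in replicate 2. The nearest summit of replicate 1 lay 519 bp from that pooled summit. The highest dsx summit below the IDR set had a signal of 132 (rank 3891) and lay 457 bp before that second start.

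fru, which encodes the BTB zinc-finger factor of male courtship behaviour, held more pooled summits than any other member, 48 of 106, but had a long stretch almost without them. The stretch begins at the first start, the distal P1 promoter whose transcripts carry the sex-specific splicing. The first 37 kb held 1 pooled summit, 1 of replicate 1 and 0 of replicate 2. The remaining 94.3 kb held 47 pooled summits, 53 of replicate 1 and 38 of replicate 2. Per 10 kb of pooled summits this is 0.270 against 4.98. The remaining part was itself uneven, so sparse sequence was not limited to the first 37 kb. Its 10 kb from 110 to 120 kb held 0 pooled summits, and those from 40 to 50 kb and from 120 to 130 kb held 2 each. The 37 kb limit was set after the positions were seen, and a gap of 30028 bp between neighbouring pooled summits, from 7.66 to 37.7 kb, spans most of it and ends just beyond it. Base composition was close in both stretches. The AT content was 60.0% in the first 37 kb and 59.8% in the rest, and a run of 8 or more A or T occurred in 85.4% of its 200 bp tiles against 82.6%. Neither stretch holds more than 57 bp of annotated transposable element. The first intron, of 29.8 kb, held 1 pooled summit, while that of 23.2 kb further on held 14.

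**Figure D3:**
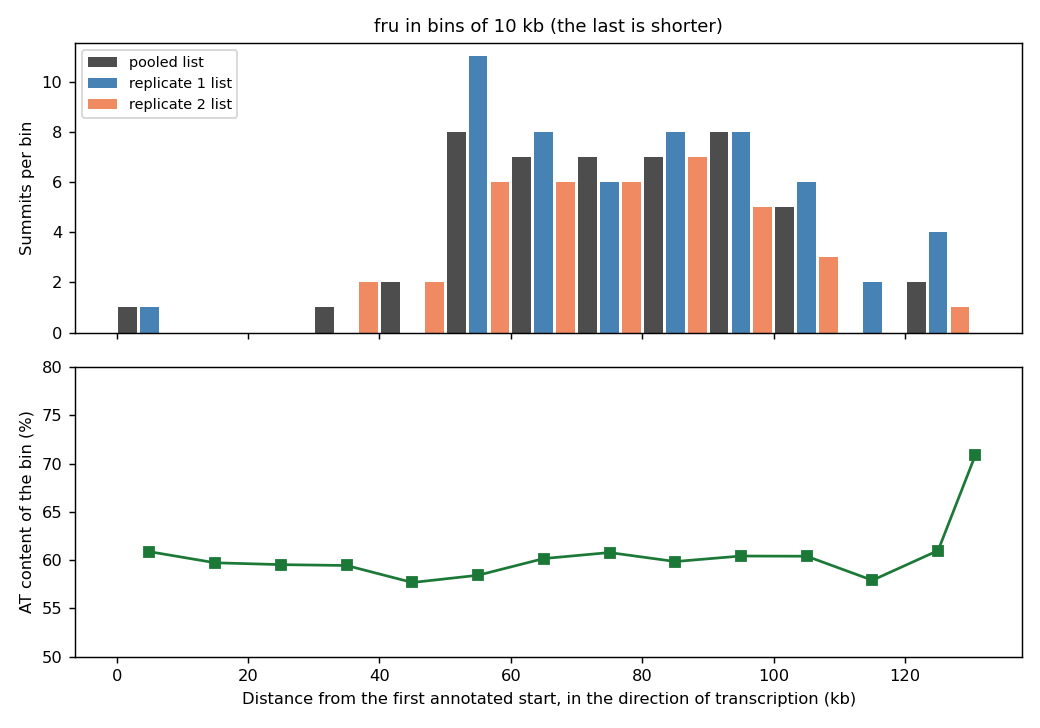
Top, summits per 10 kb bin along fru in the pooled list and in each replicate's list. Bottom, AT content of each bin (%), against distance from the first annotated start (kb). Summits concentrate from 50 to 110 kb in all 3 lists, whereas AT content stays between 57.7% and 61.0% except in the short last bin.

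The 3 IDR peaks of fru lay in introns far into the gene. The highest, 89.2 kb from the first start in an intron of 13.0 kb, had a pooled signal of 219 (rank 1387), with 107 in replicate 1 and 110 in replicate 2. Its summit positions differed by more than at the others, since that of replicate 1 lay 96 bp and that of replicate 2 lay 57 bp from the pooled summit. These 2 summits lay 153 bp apart. A second summit of replicate 1, of signal 47.2, lay nearer to that of replicate 2, at 48 bp. The next, at 76.0 kb in an intron of 14.8 kb, had a pooled signal of 193 (rank 1859), with 109 in replicate 1 and 86.2 in replicate 2. The lowest of them, at 108.9 kb in an intron of 2.91 kb, had 152 (rank 2958), with 93.5 in replicate 1 and 54.9 in replicate 2, where it ranked 7544. Just outside the IDR set, whose lowest signal was 142, were fru summits of 140 (rank 3465), 137 (rank 3614) and 132 (rank 3904).

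The 7 annotated starts of fru differed among themselves. The first had no pooled summit nearer than 7664 bp, and its nearest IDR summit, of signal 390, lay 28.4 kb upstream and outside the window. The next 3, at 39.0, 41.5 and 64.9 kb, had none within 500 bp, though the last had one just outside, 521 bp away with a signal of 51.3. The 3 downstream starts each had one close by. At 95.3 kb it lay 8 bp away with a signal of 71.5, at 98.3 kb 89 bp away with 85.3, and at 106.8 kb 160 bp away with 132. Promoters downstream of P1 are known to make fru transcripts common to both sexes. Counted over genes, 8.46% of protein-coding genes had an IDR summit within 500 bp of a start, against 0 of 6 members, and 26.7% had a pooled summit there, against Sxl, dsx and fru.

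The replicates placed summits at the members about as often together as elsewhere. Of the 106 pooled summits, 48 (45.3%) had a summit of both replicates within 100 bp, against 44.1% of other pooled summits, and 5 (4.72%) had neither, against 8.19%. Over those 48 the 2 replicates' signals, on a log2 scale, correlated with r = 0.55 (Pearson) and rho = 0.49 (Spearman), given as a description since peaks of the same libraries share their depth and their local sequence. The r was 0.72 over 22 summits at fru and 0.58 over 18 at dsx, but -0.28 over 8 at Sxl. In the 3388 highest peaks of each replicate, fru had 5 in replicate 1 and 2 in replicate 2, dsx had 2 in each, Sxl had 2 in replicate 1 and 0 in replicate 2, and tra2 had 1 in replicate 1. Only the dsx peaks and the 2 higher fru peaks of the IDR set were among the highest of both lists.

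**Figure D4:**
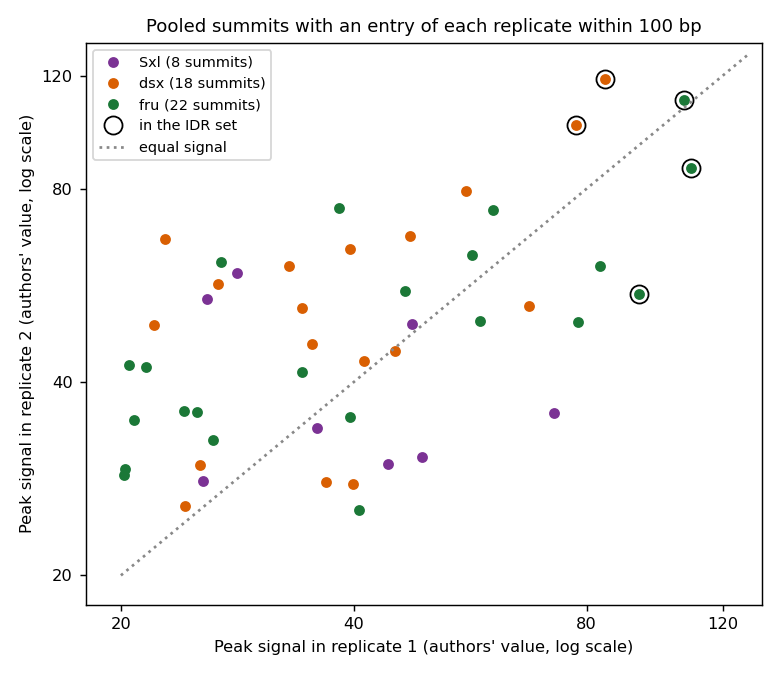
Authors' peak signal in replicate 2 (vertical, log scale) against replicate 1 (horizontal, log scale) for the 48 pooled summits at Sxl, dsx and fru that both replicates marked within 100 bp, with a dotted line at equal values. The 5 IDR summits (ringed) lie toward the right. The lowest fru one, at 54.9 in replicate 2, lies below several unringed summits in height, and the others lie at the upper right. The 8 Sxl summits show no joint order.

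The sequence at member summits was AT-rich to about the same degree as at other D1 summits. In 200 bp windows the AT content was 68.5% ± 5.33 (SD, n = 5 summits) at the member IDR summits, against 66.5% ± 6.88 at the other 3383. At pooled summits it was 62.9% ± 8.28 (n = 106), against 62.1% ± 8.13 elsewhere and 57.8% in all 200 bp tiles of the genome. By gene, pooled summits had 67.0% at Sxl, 63.1% at dsx and 61.2% at fru, and the tiles of the same windows 61.8%, 58.9% and 59.7%. A run of 8 or more A or T was present at 5 of 5 member IDR summits, against 94.6% of the others, and in 90.6% of member pooled windows against 86.5%, with 70.3% of genome tiles. AATAT, the unit of a fly satellite repeat long linked with D1, was searched on both strands and can lie within such runs. It was present at 3 of 5 member IDR summits against 75.0% of the others, in 57.5% of member pooled windows against 61.4%, and in 48.6% of genome tiles. The genes differed in direction: it was in 68.4% of pooled windows at Sxl against 56.3% of the tiles of its window, in 64.1% against 57.4% at dsx, and in 47.9% against 52.8% at fru. fru also held the least AT-rich pooled summit of all members, at 36.0% AT, in coding sequence 122.7 kb from the first start. That summit was a weak call, of signal 46.8 (rank 25030), with 30.5 in replicate 1. The nearest summit of replicate 2 lay 4943 bp from it. A match is a description of the sequence and not of a contact.

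Of 39 other genes of the pathway, 38 matched the annotation. An IDR summit lay in the window of 16 of those and a pooled summit in that of 29, with the genome background of 27.3% and 57.2% as above. Length enters here too, since 7 of the 38 are genes of 20 kb or more, for which the IDR share was 59.3%. Of those 7, 5 had an IDR summit. By role, 6 of the 10 genes that count X chromosomes or read the count for Sxl had an IDR summit: da, gro, dpn, emc, her and Myc. Their highest was at the her window, with a signal of 394, 388 bp upstream of the neighbour CG31807. da and gro, a bHLH activator and a corepressor, had IDR summits at their own starts. The signals were 258 at 186 bp upstream of da and 219 at 164 bp upstream of gro. Myc also had an IDR summit within 500 bp of a start of its own. The highest summits of dpn and emc lay nearest to other starts, of sisRNA:4 at 235 bp and of a tRNA gene at 2736 bp. Among 8 genes for Sxl splicing and m6A RNA methylation only Flacc had one, of signal 236 at 53 bp upstream of its start. Of the germline regulators of Sxl, ovo alone of 4 had any IDR summit, with 4 and a highest signal of 383. msl-2, the dosage compensation gene that Sxl represses, had no summit in any list. The other Sxl target listed, nos, was left out of these counts because its symbol was not unique. The gene annotated as nanos held 4 IDR and 10 pooled summits in its window. Of the 3 partners and kinases of Tra and Tra2, only SRPK had an IDR summit, with a signal of 142 (rank 3363). It lay near the limit of the IDR set and had no summit of replicate 1 within 100 bp.

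Among 12 targets and partners of Dsx and Fru, 7 had an IDR summit: Yp3, bab1, Abd-B, retn, lola, to and Lgr3. The share over all protein-coding genes was 27.3%, but 5 of the 12 are genes of 20 kb or more, for which it was 59.3%, and 4 of the 7 are among those 5. lola, a BTB factor that acts with Fru, had 4 with a highest signal of 313 at 454 bp upstream of one of its starts. Abd-B, the Hox factor of the posterior abdomen, had 3 of up to 152, and bab1, a pigmentation regulator, had 1 of 233 in an intron. Yp3, a yolk protein gene, had 2 of up to 186, next to the start of an antisense RNA, while Yp1 and Yp2 had none. The summit of 276 in the window of Lgr3 lay 70 bp upstream of Idh3g, and that of 151 in the window of to lay 314 bp upstream of Sil1, so both were nearest to a neighbour's start. That of Lgr3 had no summit of replicate 2 within 100 bp. The IDR summit of retn, of signal 152, had none of replicate 1 within that distance.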

How the data were processed

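D1-eGFP chromatin was measured by ChIP-seq in 2 biological replicates of whole pupae (1 group, replicate numbers from the labels). The deposited peak lists, on dm6 per the labels, give for each peak a signal and a −log10 q-value made by the authors. A control was used in calling peaks for each replicate and for both together, per the deposited text notes. Neither the aligner nor the caller is named there, and the threshold of the IDR set and the signal's scale are not stated either. Many q-values share their list's maximum, so rank follows the signal, within a list only. Read depth is unknown, and the number of peaks limits the precision.

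Summits were taken 1-based and assigned to genes of Ensembl release 115 on the Release 6 sequence, leaving out transposable elements. A summit counted for a gene where it lay in the body or within 5 kb. A start was counted as occupied within 500 bp. AT content was taken in 200 bp, and replicate summits were matched within 100 bp. Intervals are exact 95% Poisson intervals. No test was made, since there is 1 group. The members and the pathway lists were chosen with earlier results of these data known. The symbol nos matched no gene in a unique way and was left out of the pathway counts. All members, every IDR peak at them, the highest pooled peak where a member had pooled peaks only, and the pathway genes with an IDR summit were named by rule. Other peaks and the stretches of fru and dsx were chosen after their values were seen. Counting was tested on simulated peaks. Alternatives were no flank, 2 kb, peak midpoints, each replicate's list in place of the joint ones, the 1694 highest IDR peaks, windows of 100 and 500 bp and, added after seeing the data, summits within 500 bp counted once. Python 3.11.15, numpy 2.4.6, pandas 2.3.3, scipy 1.17.1 and matplotlib 3.10.9 were used.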

Additional observations from a re-analysis of the deposited data

How the results depend on the processing

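With each replicate's 3388 highest peaks in place of the IDR set, leaving out the other replicate, the members with a summit numbered 2 to 4 (main value 2), their summits 4 to 10 (main value 5), and the density ratio to the rest of the chromosomes 0.602 to 1.51 (main value 0.753). Without replicate 2, the peaks of replicate 1 at Sxl, tra2 and fru gave the higher values, so the density of high peaks at these genes relative to the rest is not settled in direction. In the 1694 highest IDR peaks 1 member, fru, held 1 summit. The AT content at member IDR summits, 68.5%, was 67.1% with no flank and with 2 kb, 67.2% to 67.9% over the replicates left out, 61.5% in the 1694 highest (1 summit) and 62.6% in 500 bp. Pooled counts were 96 to 107 over the replicates left out and 89 with summits within 500 bp counted once. No paired analysis was possible because there is only 1 group. The limits are the unknown depth, list lengths that were fixed, 2 replicates that differed at Sxl, tra2 and ix, 5 IDR summits in all, and pupae of mixed tissue and unrecorded sex.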
